A study of Mus musculus with 8 samples.

Results

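The endoplasmic reticulum (ER) of the pancreas folds the digestive enzymes that acinar cells secrete, and 37 genes of its folding and disposal machinery are described here, listed by name for their function. The list held 20 chaperones and folding factors and 17 genes of ER-associated degradation (ERAD). A value was found for 36 of them (19 chaperones and 17 ERAD genes) among 22180 genes measured. Erp29, a thioredoxin-like folding factor, shared its array row with Tmem116 and was left out.

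Total RNA of mouse pancreas was measured on 8 whole-transcript arrays, 4 of LmnaKO pancreas (called KO here) and 4 of LmnaWT pancreas (called WT), all of strain C57 BL6. Lmna encodes lamin A/C, a filament protein under the nuclear envelope, and the series title places its loss in pancreatic acinar cells. Both groups had received tamoxifen by intraperitoneal injection (3 mg per 40 g of body weight) and were sampled after 6 days; each group held 3 males (arrays 1 to 3) and 1 female (array 4). Neither the Cre line, the deleted part of Lmna nor the animals' age is stated in the sources used here. Values are log2 expression as deposited, and a change is the log2 difference, KO minus WT, with its standard error. A gene is said to rise or fall where its adjusted p from limma (Benjamini-Hochberg over all 22180 genes) was below 0.05. These p-values set the difference of group means against the spread within groups of 4 samples, moderated over all genes. The labels do not say how the animals were chosen.

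Proteins enter the ER unfolded. The HSP70-type chaperone BiP and the HSP90-type chaperone GRP94 hold them, helped by J-domain proteins and nucleotide exchange factors, while the lectins calnexin and calreticulin hold glycoproteins through their sugars. Glycoproteins that fail to fold have mannose residues trimmed, are handed by ERAD lectins to a ubiquitin ligase complex in the ER membrane, and are pulled into the cytosol by the ATPase p97 for the proteasome. Many genes of both branches are targets of the unfolded protein response, through the transcription factors ATF6 and XBP1.

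Over the whole table, 14.6% of genes rose and 6.99% fell in KO. The groups did not overlap in 15.3% of genes that were higher and 12.1% that were lower in KO. Values of the KO arrays were spread more widely (interquartile range over all rows 2.45 to 2.65 log2 units in KO and 2.06 to 2.20 in WT). The deposited arrays thus did not share 1 distribution, and the main fit used them as they were. In that fit 3241 genes rose and 1551 fell. The counts were 1228 and 1142 after quantile normalization of the deposited values, and 1521 and 1178 after cyclic loess. Lmna itself read 2.33 to 2.73 in KO and 2.54 to 3.13 in WT (-0.24 ± 0.15, limma adjusted p = 0.264), in a dim row whose probes may lie outside the deleted part, so this does not check the labels. One array stood apart for these genes: WT 2 was the lowest of the WT arrays in 31 of the 36 members, against 30.5% of all genes.

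Lists of cell type markers were counted in the same fit, in which 14.6% of all genes rose and 6.99% fell. Of macrophage markers 3 of 8 rose and 0 fell, and their level (the mean over genes of the log2 value minus the gene's mean over the 8 arrays) ran from -0.32 to 1.43 in KO and from -1.83 to 0.14 in WT. Of stellate and fibroblast markers 1 of 7 rose, about the share of all genes, with levels of -0.49 to 1.37 in KO and -1.22 to 0.12 in WT. The levels of the macrophage list and of this list overlapped between the groups. Acinar enzymes read near the top of the scale in both groups (Ctrb1 averaged 12.3 in KO and 12.4 in WT, Cpa1 12.1 and 12.2). Of acinar markers 0 of 9 rose and 3 fell (Prss2 and the acinar transcription factors Bhlha15 and Rbpjl). Ptf1a, another acinar transcription factor, did not pass in limma (0.03 ± 0.31, adjusted p = 0.957). Acinar levels were -0.33 to -0.17 in KO and 0.17 to 0.31 in WT. None of 7 plasma cell markers passed in limma (-0.42 to 1.04 in KO and -0.28 to 0.04 in WT), and none was at an unadjusted p under 0.05 except Sdc1. Ductal markers (1 of 5 higher, 1 lower) and islet markers (0 of 5 higher, 1 lower) had overlapping levels. In whole tissue, more cells of a type and more RNA per cell cannot be told apart. The part of these cells in the results below was not tested.

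The chaperones were mostly higher in KO pancreas and the ERAD genes were divided. Of 19 chaperones, 11 rose and 1 fell, with a median change of 0.71, against 14.6% of all genes that rose and 6.99% that fell; of 17 ERAD genes, 3 rose and 2 fell, with a median of 0.19. The median of all genes was -0.06, and relative to it the chaperones stood at 0.77 and the ERAD genes at 0.25. With each array centred on its median, the median of all genes was 0.08, a shift of more than 0.1 log2 units, which moves every gene of an array alike and leaves the distances of 0.77 and 0.25 as they are by construction. The chaperone median was positive under every scaling tried. The ERAD median was -0.16 after quantile normalization of the deposited values and -0.19 with cyclic loess (together called the renormalizations below). Among the 6991 genes left by a filter on dim rows, the median of all genes was 0.47; relative to it the chaperones stood at 0.30 and the ERAD genes at -0.28. The gap between the medians of chaperones and ERAD genes was 0.52, and 0.46 to 0.73 under the 18 alternatives run; it is a description, since genes are not replicates and no test was made of it. Without WT 2, 10 chaperones and 3 ERAD genes rose, with medians of 0.58 and 0.11.

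**Figure D1:**
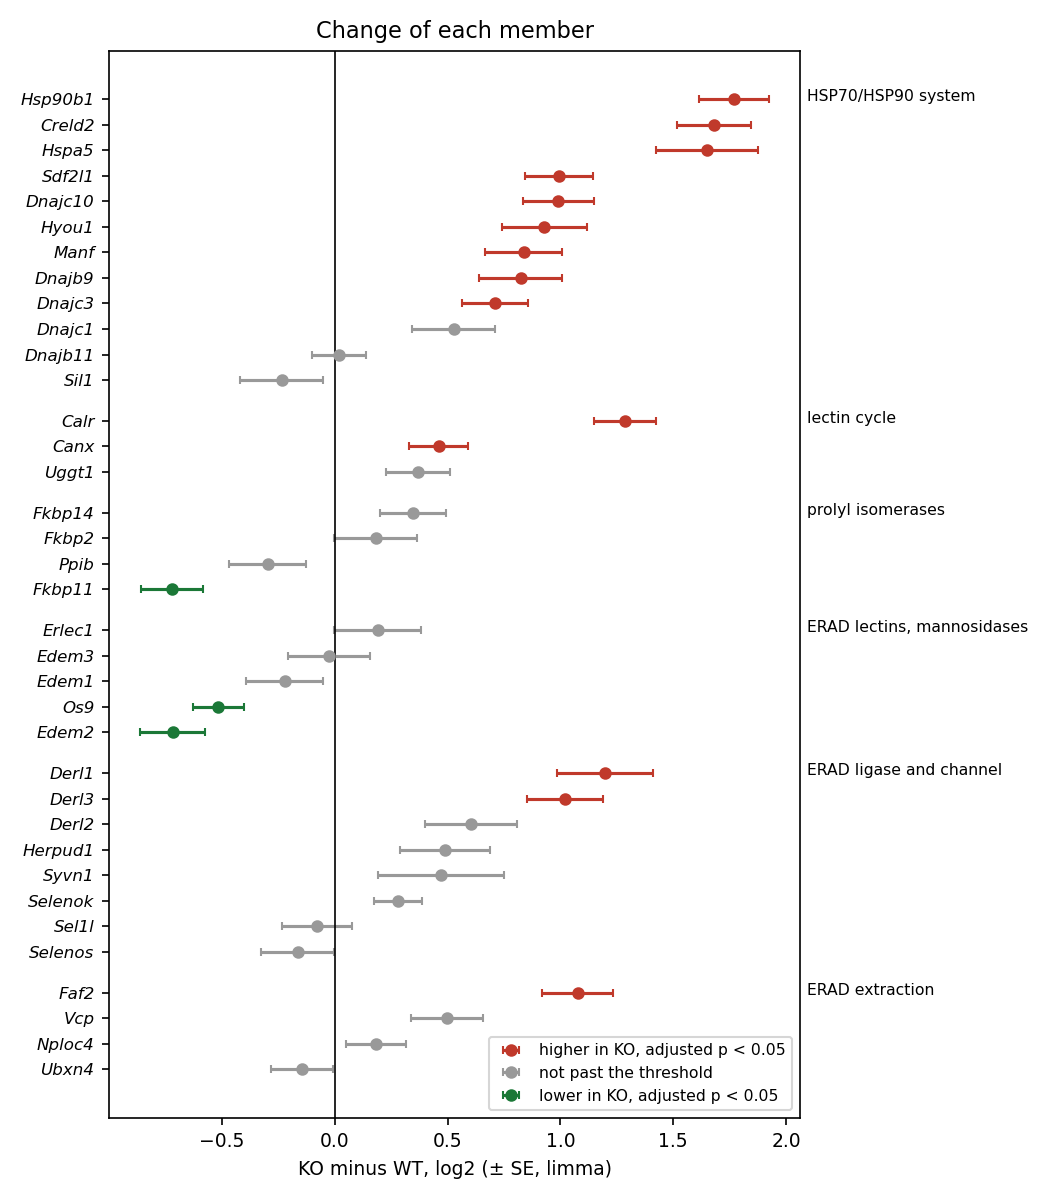
Change of each of 36 members in KO against WT pancreas (x axis: KO minus WT in log2 units, bars are ± SE from limma, 4 arrays per group), grouped by role. Red points rose, green points fell and grey points did not pass an adjusted p of 0.05; 9 of 12 genes of the HSP70 and HSP90 system rose, and the falls were those of Fkbp11, Os9 and Edem2.

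The genes that hold and release unfolded chains, the HSP70 and HSP90 system of the ER, rose in 9 of 12 cases, with a median change of 0.88. The share over all genes was 14.6%. Hsp90b1, which encodes GRP94, read 11.54, 11.37, 11.32 and 11.33 in KO 1 to KO 4, against 9.51, 9.33, 9.62 and 10.01 in WT 1 to WT 4. Its KO arrays lay close together and above every WT array. It rose by 1.77 ± 0.15 (3.41-fold, limma adjusted p = 0.000695), the smallest adjusted p of the 36 members.

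Hspa5, which encodes BiP, read 9.65, 9.62, 9.76 and 9.55 in KO and 7.82, 7.44, 8.05 and 8.68 in WT. The 4 KO arrays spanned a narrow range (SD 0.09) and the WT arrays a wide one (SD 0.52), the WT female being the highest of them. Hspa5 rose by 1.65 ± 0.23 (3.14-fold, adjusted p = 0.00254). Creld2, a disulfide-rich protein of the ER induced by ER stress, read 10.17, 10.10, 9.74 and 9.89 in KO and 8.17, 7.99, 8.37 and 8.65 in WT. All KO arrays were above all WT arrays by more than 1 log2 unit, and Creld2 rose by 1.68 ± 0.17 (3.21-fold, adjusted p = 0.000964).

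Among the helpers of BiP, Hyou1 and Sil1 encode its nucleotide exchange factors, which release its clients. Hyou1 read 9.45, 9.45, 9.54 and 9.27 in KO and 7.99, 8.36, 8.81 and 8.83 in WT. It rose by 0.93 ± 0.19 (adjusted p = 0.0104) with no overlap. Sil1 read 6.27, 5.90, 6.17 and 6.09 in KO and 6.68, 5.81, 6.47 and 6.41 in WT. Its groups overlapped, and the change of -0.24 ± 0.18 did not pass (adjusted p = 0.354), although Sil1 passed as lower under both renormalizations (-0.64 in each). Manf, a secreted and ER-resident partner of BiP, read 4.39, 4.16, 4.32 and 4.24 in KO and 3.23, 3.08, 3.82 and 3.63 in WT, without overlap. It rose by 0.84 ± 0.17 (adjusted p = 0.0106), a call that ended after quantile normalization of the deposited values (0.58, adjusted p = 0.0830).

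The J-domain proteins, which bring clients to BiP and set off its ATPase, were not uniform. Dnajc10, which carries a J domain and disulfide reductase activity and serves ERAD, read 6.55, 6.82, 6.64 and 6.78 in KO and 5.77, 5.29, 5.89 and 5.87 in WT. Every KO array was above every WT array, a rise of 0.99 ± 0.16 (1.99-fold, adjusted p = 0.00414). Dnajb9, a BiP co-chaperone that restrains the sensor IRE1 and assists ERAD, read 8.83, 8.51, 8.84 and 8.66 in KO and 7.86, 7.52, 7.76 and 8.40 in WT. The WT female was again nearest to the KO arrays; the rise was 0.82 ± 0.18 (adjusted p = 0.0147), and 0.55 with an adjusted p of 0.0546 after cyclic loess.

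Dnajc3, a J-domain protein of the ER lumen, read 10.07, 9.82, 9.84 and 9.86 in KO and 9.35, 8.80, 9.35 and 9.24 in WT, with no overlap, a rise of 0.71 ± 0.15 (adjusted p = 0.0114). Dnajb11, a lumenal J-domain co-chaperone that binds clients directly, read 8.34, 8.11, 8.03 and 8.19 in KO and 8.17, 7.98, 8.30 and 8.15 in WT. The arrays of both groups were interleaved (0.02 ± 0.12, adjusted p = 0.917), and the sign of this small difference turned in 5 of 18 alternatives. Sdf2l1, which forms a complex with the Dnajb11 product, read 8.52, 8.13, 8.56 and 8.49 in KO and 7.40, 7.14, 7.66 and 7.53 in WT. The groups of Sdf2l1 were separate, and it rose by 0.996 ± 0.15 (1.99-fold, adjusted p = 0.00359). Dnajc1, a membrane J-domain protein that meets ribosomes, changed by 0.53 ± 0.18 (adjusted p = 0.0668) with no overlap of the groups and passed without WT 1, after median centring and with array weights.

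**Figure D2:**
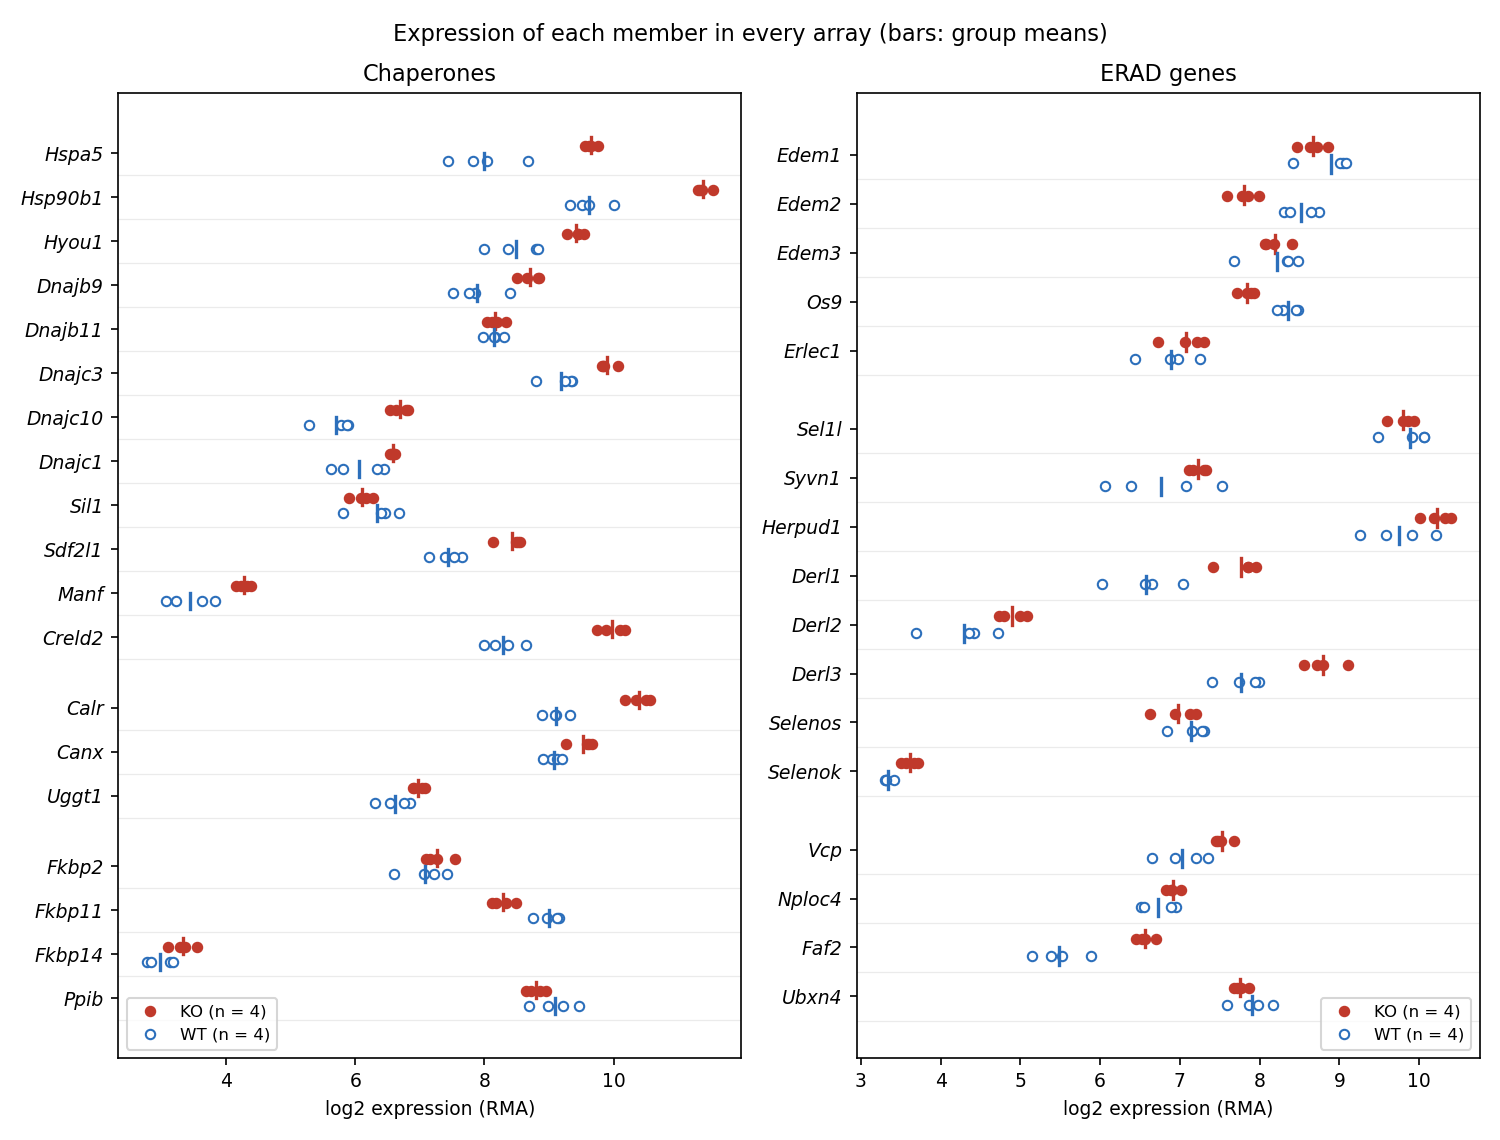
Log2 expression (x axis) of each member in all 8 arrays, KO as filled red points above WT as open blue points, with group means as bars; chaperones are on the left and ERAD genes on the right. Hsp90b1, Hspa5, Creld2 and Calr show wide gaps between the groups, whereas Dnajb11, Sel1l and Edem3 overlap.

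The calnexin and calreticulin cycle holds newly made glycoproteins until folded. Calr, the soluble lectin calreticulin, read 10.50, 10.56, 10.34 and 10.18 in KO and 8.89, 9.11, 9.33 and 9.10 in WT. The groups were far apart relative to their SDs (0.17 in KO and 0.18 in WT), and Calr rose by 1.29 ± 0.14 (2.44-fold, adjusted p = 0.00125). Canx, the membrane lectin calnexin, read 9.61, 9.26, 9.59 and 9.67 in KO and 9.05, 8.91, 9.13 and 9.20 in WT. The lowest KO array was just above the highest WT array, and the rise of 0.46 ± 0.13 (1.38-fold, adjusted p = 0.0336) had the largest adjusted p of the called members. That call ended in 8 of 18 alternatives, among them both renormalizations (0.29 and 0.27) and the arrays without WT 2 (0.41). Uggt1, the folding sensor that puts glucose back on unfolded glycoproteins, read 6.90 to 7.08 in KO and 6.30 to 6.85 in WT; its change of 0.37 ± 0.14 did not pass (adjusted p = 0.0854).

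Peptidyl-prolyl isomerases turn proline bonds during folding. Of the 4 measured members of this kind 0 rose and 1 fell in limma, with a median of -0.06. The shares over all genes were 14.6% and 6.99%. Among those not called, Fkbp14 had an unadjusted p under 0.05. Fkbp7, an isomerase of the further list below, did rise. Fkbp11, an ER membrane isomerase found in secretory tissues, read 8.33, 8.11, 8.49 and 8.19 in KO and 9.15, 8.75, 9.13 and 8.98 in WT. All KO arrays were below all WT arrays, a fall of -0.72 ± 0.14 log2 units (adjusted p = 0.00808). Ppib, cyclophilin B, changed by -0.30 ± 0.17 (adjusted p = 0.213), Fkbp2 by 0.18 ± 0.18 (adjusted p = 0.473), and Fkbp14, an isomerase for collagens, by 0.35 ± 0.15 (adjusted p = 0.109) in a dim row (3.10 to 3.56 in KO and 2.77 to 3.18 in WT). With cyclic loess Ppib passed as lower (-0.52).

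The lectin side of ERAD was lower or unresolved in KO. Of its 5 genes 0 rose and 2 fell, with a median of -0.22. The share of all genes that fell was 6.99%. At a mean level of 8 or more, where these falls lay, 38 of all 268 genes fell. The count of falls therefore does not set this role apart. Edem2, which starts the mannose trimming that marks a glycoprotein for disposal, read 7.99, 7.59, 7.77 and 7.86 in KO and 8.75, 8.31, 8.64 and 8.38 in WT. No KO array reached the lowest WT array, and Edem2 fell by 0.72 (-0.72 ± 0.14, adjusted p = 0.00945). Os9, the lectin that brings trimmed glycoproteins to the ligase complex, read 7.89, 7.72, 7.93 and 7.83 in KO and 8.29, 8.22, 8.48 and 8.45 in WT. It too had no overlap and fell by 0.52 (-0.52 ± 0.11, adjusted p = 0.0143).

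Erlec1, the other lectin of this step, read 6.72 to 7.31 in KO and 6.43 to 7.25 in WT (0.19 ± 0.19, adjusted p = 0.473). Edem1 changed by -0.22 ± 0.17 (adjusted p = 0.338) and Edem3 by -0.03 ± 0.18 (adjusted p = 0.919); both trim mannose further. In Edem1 and Edem3 the array WT 2 (8.42 and 7.68) stood below the other WT arrays (9.01 to 9.08 and 8.35 to 8.47). Without WT 2, Edem1 changed by -0.38 and Edem3 by -0.21, neither past the threshold. Under cyclic loess Edem1 passed as lower (-0.46).

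The membrane complex is built on the ligase Hrd1, encoded by Syvn1, and its adaptor Sel1l. Of 8 genes of this complex, 2 rose and 0 fell, with a median of 0.48. The share of all genes that rose was 14.6%, and it was 33.1% at a mean level of 6 to 8 and 22.0% at 8 or more. The count of rises therefore does not set this role apart. Sel1l read 9.80, 9.86, 9.60 and 9.94 in KO and 9.91, 9.48, 10.07 and 10.06 in WT, interleaved, with a change of -0.08 ± 0.16 (adjusted p = 0.711). Syvn1 read 7.33, 7.30, 7.12 and 7.17 in KO and 6.06, 6.38, 7.07 and 7.53 in WT. The WT arrays of Syvn1 spanned more than 1 log2 unit and enclosed the KO arrays (SD 0.10 in KO and 0.66 in WT), so its change of 0.47 ± 0.28 did not pass (adjusted p = 0.231). Herpud1, a membrane scaffold of the complex, read 10.40, 10.32, 10.004 and 10.18 in KO and 9.91, 9.26, 9.59 and 10.21 in WT (0.49 ± 0.20, adjusted p = 0.103), with the WT female within the KO range.

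The derlins are membrane proteins through which ERAD clients are thought to leave the ER. Derl1 read 7.95, 7.42, 7.85 and 7.85 in KO and 7.04, 6.03, 6.65 and 6.56 in WT. The groups were separate, and Derl1 rose by 1.20 ± 0.21 (2.29-fold, adjusted p = 0.00601). Derl3, the derlin characteristic of secretory cells such as the acinar cell, read 9.10, 8.79, 8.55 and 8.71 in KO and 7.99, 7.41, 7.93 and 7.74 in WT, also with no overlap. It rose by 1.02 ± 0.17 (2.03-fold, adjusted p = 0.00478). Derl2 read 5.08, 4.79, 4.74 and 4.99 in KO and 4.71, 3.69, 4.41 and 4.36 in WT. The highest WT array lay just under the lowest KO array; its change of 0.61 ± 0.20 did not pass (adjusted p = 0.0602), but did with the replicate number as a block (adjusted p = 0.0346). The selenoproteins that tie p97 to this complex did not pass: Selenos changed by -0.16 ± 0.16 (adjusted p = 0.464; -0.54 and past the threshold with cyclic loess) and Selenok by 0.28 ± 0.11 (adjusted p = 0.0844).

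Of the 4 genes that extract clients, 1 rose and 0 fell. All had a mean level of 6 to 8, where 33.1% of all genes rose, so this count does not set them apart. Faf2, a membrane-anchored UBX protein that recruits p97, read 6.70, 6.45, 6.56 and 6.52 in KO and 5.88, 5.15, 5.39 and 5.52 in WT. The groups did not overlap and Faf2 rose by 1.08 ± 0.16 (2.11-fold, adjusted p = 0.00331). Vcp, which encodes p97 itself, read 7.52, 7.67, 7.47 and 7.45 in KO and 7.20, 6.64, 7.35 and 6.94 in WT. It was higher in every KO array, but at 0.50 ± 0.16 it stood just outside the threshold (adjusted p = 0.0514), passed in 4 of 18 alternatives, and had a second, dimmer row on the array that differed the other way (3.43 in KO and 3.88 in WT on average). Nploc4, a cofactor of p97, changed by 0.18 ± 0.13 (adjusted p = 0.324) and Ubxn4, another UBX protein of the ER membrane, by -0.14 ± 0.14 (adjusted p = 0.450). Ubxn4 passed as lower under both renormalizations (-0.41 and -0.46).

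**Figure D3:**
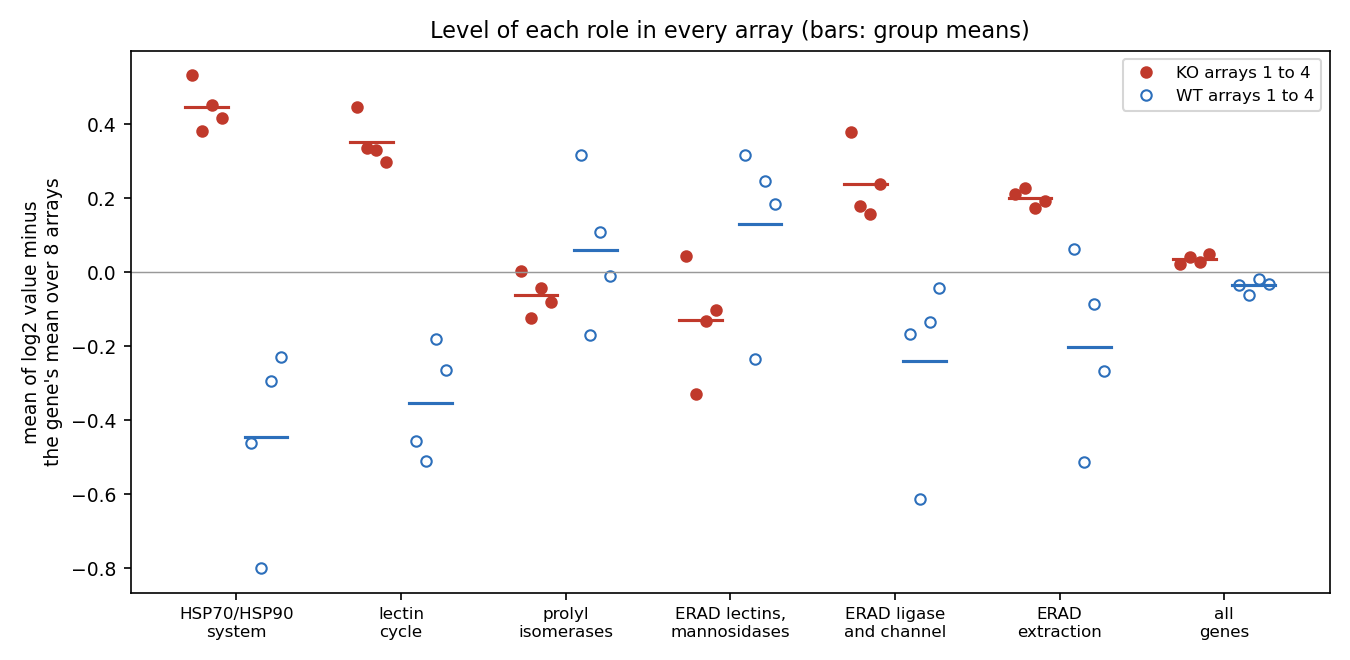
Level of each role in the 4 KO arrays (filled red) and the 4 WT arrays (open blue), on the y axis: each gene's log2 value less its mean over 8 arrays, averaged over the genes of the role, with bars at group means. The HSP70 and HSP90 system lies at 0.38 to 0.53 in KO and -0.80 to -0.23 in WT, the ERAD lectins overlap, and the lowest WT point in each role is WT 2.

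By array, the chaperone level was 0.41, 0.27, 0.33 and 0.29 in KO 1 to KO 4 and -0.30, -0.62, -0.19 and -0.19 in WT 1 to WT 4. The ERAD level was 0.24, 0.04, 0.08 and 0.13 in KO and 0.03, -0.48, -0.01 and -0.03 in WT. The chaperone levels were well apart, while for ERAD the highest WT array (0.03) nearly reached the lowest KO array (0.04). The chaperone level minus the ERAD level was 0.17 to 0.25 in the KO arrays and -0.33 to -0.14 in the WT arrays. The SD was smaller in KO than in WT for 33 of 36 members (91.7%, against 66.9% of all genes), with a median SD of 0.15 in KO and 0.29 in WT. This depended on the array WT 2: without it the SD was smaller in KO for 21 of 36 members (58.3%, against 57.8% of all genes), with a median SD of 0.15 in KO and 0.19 in WT. That comparison was chosen after seeing the data and has fewer arrays in WT than in KO. The SDs were not compared with another WT array left out.

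Changes in this series depended on the level of the row, so each class was set against genes of like level. At a mean level of 8 or more, 8 of 11 chaperones and 1 of 7 ERAD genes rose, against 22.0% of all genes there. At a level of 6 to 8, 2 of 6 chaperones and 2 of 8 ERAD genes rose, against 33.1% of all genes. Below 6, 1 of 2 chaperones and 0 of 2 ERAD genes rose, against 13.4% of all genes. At 6 to 8 the chaperones' share was about that of all genes, and below 6 only 2 genes of each class were measured. The falls of Fkbp11, Os9 and Edem2 lay at a level of 8 or more, where the median change of all genes was 0.08. There 1 of 11 chaperones and 2 of 7 ERAD genes fell, against 38 of all 268 genes, so few falls do not set the members apart. The groups did not overlap, with KO higher, in 13 of 19 chaperones and 6 of 17 ERAD genes, against 15.3% of all genes. They did not overlap, with KO lower, in 1 of 19 chaperones and 2 of 17 ERAD genes, no more than the 12.1% of all genes.

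**Figure D4:**
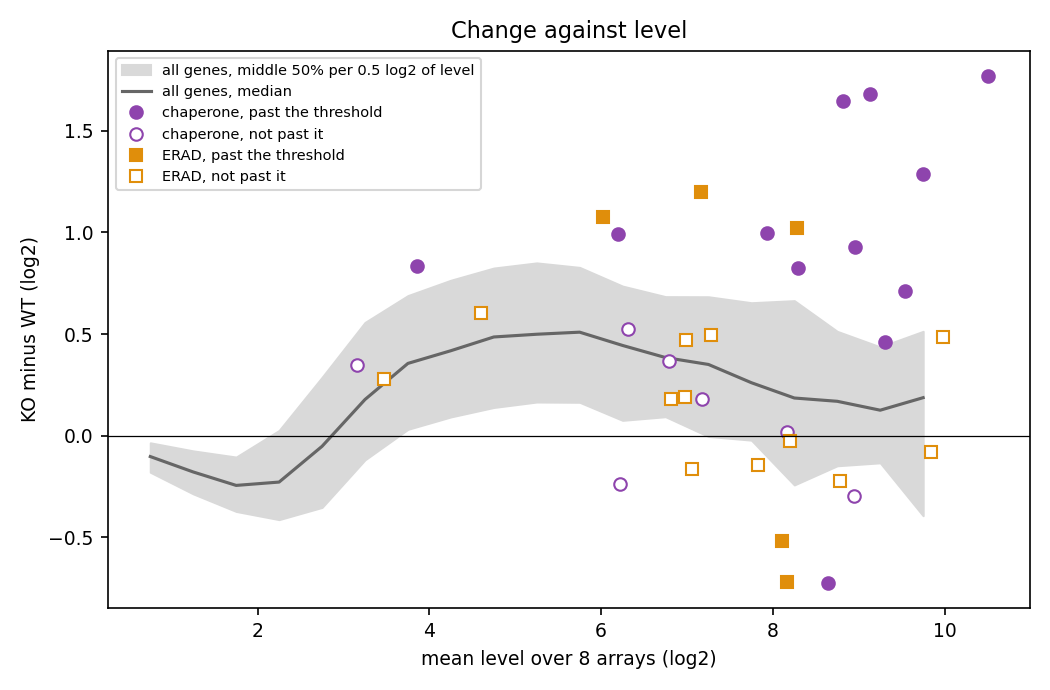
Change (y axis, KO minus WT in log2 units) against mean level over 8 arrays (x axis, log2) for chaperones (purple circles) and ERAD genes (orange squares), filled where the adjusted p was below 0.05, over the median (line) and the interquartile range (grey) of all genes in steps of level. The band is drawn only over steps with enough genes and ends below the level of Hsp90b1. Creld2, Hspa5 and Calr (at the end of the band) lie well above it, and Fkbp11, Edem2 and Os9 lie below it.

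The promoters of the members were searched for the ER stress response element (ERSE), the pair CCAAT and CCACG with 9 bases between them, which ATF6 binds together with NF-Y. Promoter sequences from RefSeq (GRCm38.p6, 250 bases before to 50 after the gene start) matched 31 of the 37 members. On either strand, an ERSE was found for 6 of 16 chaperones (Hspa5, Hsp90b1, Dnajc3, Creld2, Calr and Canx) and 2 of 15 ERAD genes (Syvn1 and Derl3), counted by gene. It was found in 0.119% of all 32851 promoters, which belong to 37 of 27025 genes. The difference between these shares was not tested. All 6 of those chaperones rose, with a median change of 1.47, while 3 of the 10 chaperones with a promoter but no ERSE rose and 1 fell (median 0.36). In ERAD, Derl3 rose and Syvn1 did not pass, and of 13 genes without the element 1 rose and 2 fell (median -0.03). Members with no promoter sequence are in neither part. Derl1, the largest rise of the ERAD genes (1.20), was one of them. Of the 11 chaperones that rose, only the 6 and the 3 above were counted. The counts and medians of the split thus leave out members that rose. The sites are shown because they are the stretches this comparison counted. Members without the element also had large changes, among them Faf2 (1.08) and Sdf2l1 (0.996), and the element was found in Canx, whose rise was the smallest of the called members (0.46). Capitals are the CCAAT and CCACG parts, read as CGTGG and ATTGG where the element lies on the other strand.
Hspa5 (chr2:34772013-34772055, gene on the + strand): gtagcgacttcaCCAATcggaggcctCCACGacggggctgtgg
Hsp90b1, nearer site (chr10:86705521-86705563, gene on the - strand): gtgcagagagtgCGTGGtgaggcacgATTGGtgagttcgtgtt
Hsp90b1, farther site (chr10:86705626-86705668, gene on the - strand): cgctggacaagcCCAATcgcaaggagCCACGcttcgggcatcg
Creld2 (chr15:88819508-88819550, gene on the + strand): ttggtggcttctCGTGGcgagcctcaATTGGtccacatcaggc
Calr (chr8:84847063-84847105, gene on the - strand): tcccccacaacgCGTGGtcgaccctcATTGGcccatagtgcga
Dnajc3 (chr14:118937815-118937857, gene on the + strand): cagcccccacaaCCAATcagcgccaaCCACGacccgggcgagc
Canx (chr11:50325788-50325830, gene on the - strand): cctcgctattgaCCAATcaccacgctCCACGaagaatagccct
Derl3 (chr10:75893230-75893272, gene on the + strand): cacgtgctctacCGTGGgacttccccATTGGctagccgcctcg
Syvn1 (chr19:6046520-6046562, gene on the + strand): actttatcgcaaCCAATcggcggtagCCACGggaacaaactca

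**Figure D5:**
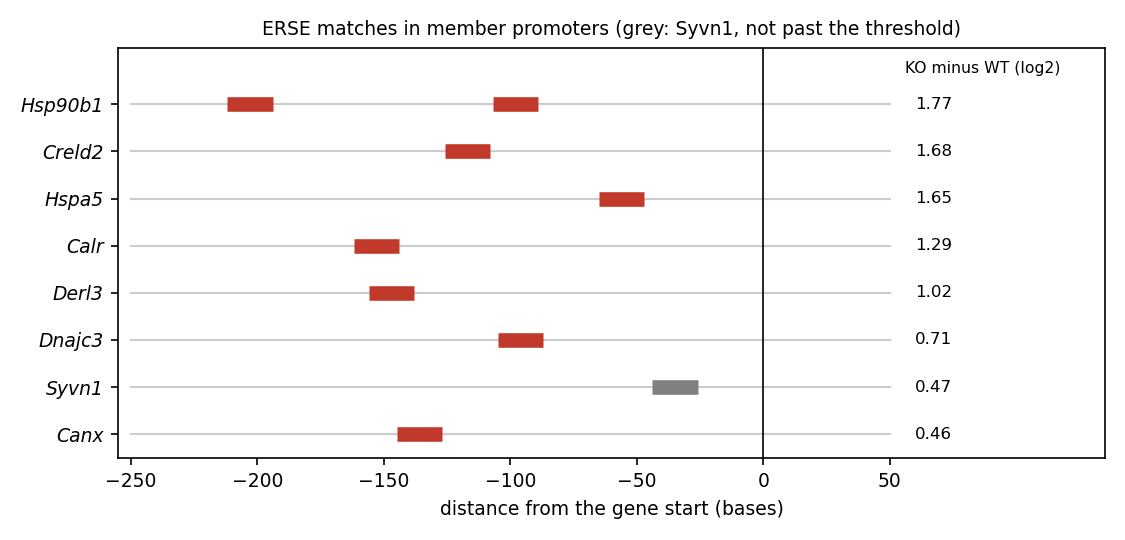
Position of ERSE matches in the promoters of 8 members (x axis: bases from the gene start at 0), ordered by change, which is printed on the right (KO minus WT, log2). Red marks members that rose and grey marks Syvn1, which did not pass; matches begin between 212 and 44 bases before the start, and Hsp90b1 has 2.

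Genes outside the list gave a comparison for this element, one that was not matched for level. Of 37 genes with an ERSE in the whole promoter table, 29 were measured; of the 21 that are no members, 2 rose and 2 fell (median -0.07). Most of these 21 were dim, whereas the 8 members with the element had mean levels of 6.99 (Syvn1) or more. In the steps of level at 1 and 1.5, the median change of all genes was -0.18 and -0.24. Only Acacb, Alg12, Ero1b, Hnrnpa3, Pan2 and Pdia6 had a mean level of at least 4. The 2 that rose were Alg12, a mannosyltransferase of glycan assembly (1.19 ± 0.14, adjusted p = 0.00199), and the disulfide isomerase Pdia6 (0.61 ± 0.12, adjusted p = 0.0108). The ER oxidase Ero1b fell by 0.77 (-0.77 ± 0.13, adjusted p = 0.00504), and so did Tdrd9, a dim gene with a mean level of 1.87 (-0.56 ± 0.15, adjusted p = 0.0290); these 4 were named after their values were seen. A related element, ERSE-II (ATTGG, any base, CCACG), was found for Dnajb11 and Herpud1, against 0.0365% of promoters, and neither gene passed. The core TGACGTG was found for Hspa5, Fkbp11 and Vcp, against 2.01% of promoters, and of these Hspa5 rose, Fkbp11 fell and Vcp did not pass. A match describes the letters in the window and does not show binding.

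Further genes of the pathway were counted in the same fit, without matching for level. Of all genes 14.6% rose and 6.99% fell, and 42.4% rose among the 6991 left by the filter on dim rows. In the steps of level from 4 to 6.5, the median change of all genes was 0.38 to 0.51. Of 21 other ER folding factors measured, 6 rose and 0 fell (median 0.36). They were led by Prkcsh, the beta subunit of glucosidase II, which read 6.95, 6.24, 6.86 and 6.47 in KO and 4.62, 4.45, 4.51 and 4.42 in WT. That is a rise of 2.13 ± 0.17 (4.38-fold, adjusted p = 0.000482), more than any member. Ganab, the catalytic subunit of the same enzyme, which trims glucose before and during the calnexin cycle, rose by 0.70 ± 0.14 (adjusted p = 0.00867). The J-domain protein Dnajc18 (0.78 ± 0.14, adjusted p = 0.00681) and the isomerase Fkbp7 (0.77 ± 0.19, adjusted p = 0.0224) rose too; Ganab, Dnajc18 and Fkbp7 lost the call under both renormalizations.

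Of 38 other ERAD genes measured, 14 rose and 1 fell (median 0.46). Of all genes 14.6% rose, and 42.4% after the filter on dim rows, so this count does not set the list apart. Erlin1, a membrane protein that brings clients to ligases, rose by 2.37 ± 0.32 (5.18-fold, adjusted p = 0.00245). The p97 cofactor Ufd1 read 6.42, 5.81, 6.27 and 6.21 in KO and 5.37, 4.82, 5.20 and 4.93 in WT, a rise of 1.10 ± 0.17 (adjusted p = 0.00401); its partner Nploc4 had not passed. Herpud2 rose by 1.17 ± 0.21 (adjusted p = 0.00589) and the sorting factor Bcap31 by 0.74 ± 0.12 (adjusted p = 0.00443, lost under both renormalizations).

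Upstream, 4 of 9 sensors and factors of the unfolded protein response rose and 0 fell, against 14.6% of all genes that rose (42.4% after the filter on dim rows). The factor CHOP, encoded by Ddit3, had the largest change (4.64 ± 0.31, adjusted p = 0.000298). Mbtps2, a protease that releases ATF6, rose by 0.91 ± 0.19 (adjusted p = 0.0114), Ern1, the sensor IRE1, by 0.71 ± 0.17 (adjusted p = 0.0200), and Atf6b by 0.44 ± 0.12 (adjusted p = 0.0328, lost with the replicate block, adjusted p = 0.0635). Ern1 and Atf6b lost the call under both renormalizations, and Mbtps2 after quantile normalization of the deposited values. Among males only, Mbtps2, Ern1 and Atf6b all lost it. Ern1 also lost it without KO 3, KO 4, WT 3 or WT 4. Atf6b lost it without any single KO array, without WT 3 or WT 4, and in eBayes with trend and robust. Atf6 (0.67 ± 0.27, adjusted p = 0.0996) and Xbp1 (-0.17 ± 0.19, adjusted p = 0.534) did not pass; both were named for their role after their values were seen, and the array rows do not measure splicing of Xbp1.

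With 1 female per genotype, a difference between the sexes rests on 1 array against 1 and cannot be told from the spread of single animals. The interaction of genotype and sex in limma passed for none of the 36 members (adjusted p = 0.9999 for each), and 1, Hspa5, had an unadjusted p below 0.05 (0.0251). Among males only, with 3 arrays per group, 8 chaperones and 2 ERAD genes rose; Dnajc3, Manf, Canx, Fkbp11, Edem2, Os9 and Derl1 lost their calls there.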

How the data were processed

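Total RNA of 8 mouse pancreata was labelled from 100 ng with a whole-transcript kit, per the labels' protocols. The authors deposited log2 expression values (41345 rows) for which oligo, RMA and limma are named without versions, per the submitters' processing notes. The log base is read from the range (0.0440 to 12.5). No batch or background signal is stated in the sources used here, and the number of arrays limits the precision. Unmapped columns numbered 0.

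Rows were named through the platform annotation: 23521 had 1 gene symbol, 1814 several and 16010 none, and the last 2 kinds were not used. For a gene in several rows, the row of highest mean over 8 arrays was kept, giving 22180 genes with no filter. Members with a second row numbered 4 (Edem1, Derl2, Selenos and Vcp). Genotype was fitted with limma 3.58.1 in R 4.3.3 on all arrays, with Benjamini-Hochberg adjustment over all genes at 0.05. The members, roles and gene lists, and the rule naming all members and up to 4 genes of smallest p per further list, were chosen with earlier results of these data known. Single cell type markers were named outside that rule. The steps were tested on simulated data. Promoters came from RefSeq (GRCm38.p6); the array's own build is not stated in the sources used here.

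Both groups carry replicate numbers 1 to 4. Across genes, deviations from the group mean correlated between KO and WT arrays of one number at 0.26, 0.17, 0.11 and 0.14. All exceed 0.1, as do 2 pairs of different number (KO 2 with WT 4 at 0.12 and KO 1 with WT 3 at 0.11). Array 4 is the female of each group, so its correlation cannot be told from one of sex. The main fit was unpaired, since the labels do not say that a number pairs animals, and the number was a block in an alternative fit only. Further alternatives were a term for sex, males only, leaving out single arrays, quantile normalization of the deposited values, cyclic loess and median centring. Others were eBayes with trend and robust, array weights, a filter on dim rows (mean of at least 4 in a group) and the mean of a gene's rows.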

Additional observations from a re-analysis of the deposited data

Results flagged for a closer look

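Within groups of 4 arrays, 7 values stood so far from the other 3 that the gap exceeded Dixon's critical share of the group's range, over 96 groups tested in 48 genes. Chance flags about 1 in 20 such groups. Dnajc3 read 10.07 in KO 1 and 9.82 to 9.86 in the other KO arrays. Sdf2l1 read 8.13 in KO 2 and 8.49 to 8.56 in the others. In WT 2, Edem1 read 8.42 (9.01 to 9.08 in the other WT arrays), Edem3 read 7.68 (8.35 to 8.47) and Selenok read 3.41 (3.30 to 3.31). Fkbp7 read 4.06 in KO 1 (4.68 to 4.75 in the other KO arrays) and 4.19 in WT 3 (3.61 to 3.68 in the other WT arrays).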

How the results depend on the processing

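Of the 18 alternatives, the count of chaperones that rose (11) stayed within 1.5 times in each, from 8 to 14, and was 10 to 12 with single arrays left out. With the replicate block the counts were 11 chaperones and 4 ERAD genes higher, with 3698 genes higher and 1348 lower in all; among the members the block changed the call of Derl2 alone. Over all genes 3241 rose and 1551 fell, so 67.6% of the calls were higher in KO. With single arrays left out, 1781 to 3713 rose (1781 without KO 4) and 459 to 2357 fell (936 without KO 1, 711 without KO 2, 742 without KO 3, 459 without KO 4, 2357 without WT 1, 908 without WT 3 and 913 without WT 4), while 3 to 5 ERAD genes rose (5 without WT 1). Among males only, 770 rose and 145 fell (84.2% higher), and 0 chaperones and 0 ERAD genes fell; that fit has fewer arrays. After quantile normalization of the deposited values 1228 rose and 1142 fell (51.8% higher), and 2 chaperones fell. The medians there were 0.54 for chaperones and -0.16 for ERAD genes. After cyclic loess 1521 rose and 1178 fell (56.4%), 3 chaperones and 5 ERAD genes fell, and the medians were 0.54 and -0.19. Median centring gave 4390 higher and 615 lower genes (87.7%) and 6 ERAD genes higher; the filter on dim rows, which tests 6991 genes, gave 2963 higher and 333 lower (89.9%) and 5 ERAD genes higher. The cause of these differences was not tested beyond the numbers of arrays and genes named. The share of calls that were higher was 61.2% to 79.5% with single arrays left out.

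Small changes of members outside the threshold turned in sign. After quantile normalization of the deposited values these were Dnajb11 (-0.20), Fkbp2 (-0.15), Erlec1 (-0.16) and Nploc4 (-0.17). With cyclic loess they were Dnajb11 (-0.27), Uggt1 (-0.016), Fkbp2 (-0.18), Erlec1 (-0.19) and Nploc4 (-0.20). Median centring turned Edem3 (0.11) and Sel1l (0.056), males only turned Edem3 (0.021), and array weights turned Dnajb11 (-0.019). With single arrays left out, Dnajb11 ran from -0.039 to 0.070 and Edem3 from -0.21 to 0.060.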
